A study of Rattus norvegicus with 24 samples.

Results

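The mitochondrial ribosomal protein genes of the rat, named Mrpl for the large subunit and Mrps for the small subunit, were followed in peripheral blood mononuclear cells (PBMCs) through 12 groups of animals. A gene was taken when its symbol in the platform annotation began with Mrpl or Mrps followed by a number, and when the probe set (a group of short probes for a transcript) named that gene alone. The rule gave 76 genes, 49 Mrpl and 27 Mrps, among 14217 genes with such a probe set. They were read by 100 of the 31099 probe sets, and the brightest probe set by mean stood for each gene. All 76 of these passed the filter on dim values (above the 40th percentile of the array in at least 2 arrays). Of the 76, 75 were above that percentile in all 24 arrays and Mrpl47 in 23.

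The RNA of PBMCs from female Wistar rats was measured on Affymetrix rat expression arrays, with 2 rats per group and a separate, sacrificed rat for each of the 24 arrays. The ages were not given in the sources used here. NOCIA rats (NORA in the labels) were healthy and were sampled before therapy (T0), at 1 h and at 34 d. CIA rats (RA) had collagen-induced arthritis, and were sampled at T0 without therapy or in 4 arms at 1 h and 34 d. The arms were MS (AP), a mechanical stimulation with a thin rotated needle that the labels call acupuncture, MTX (methotrexate), PLA (an injection of saline) and ANE (isoflurane at sampling in place of ether, with no other therapy). All the CIA arms at 34 d were compared with CIA rats at T0, and in these comparisons therapy cannot be told apart from the time and age that passed. At 34 d, MS and MTX were also compared with PLA, and MS with MTX.

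The mitochondrial ribosome translates the few messages of the mitochondrial genome, which encode core subunits of the respiratory chain and of ATP synthase. Its RNAs are made inside the organelle, while every one of its proteins is encoded in the nucleus, translated in the cytosol and imported. It descends from a bacterial ribosome: many of its proteins have a bacterial counterpart, and others were added during the evolution of mitochondria. Lymphocytes that are activated and divide are known to raise mitochondrial translation, and platelets, which have no nucleus, carry mitochondria and a store of RNA from their parent cell. Of the 76 genes, 51 encode proteins placed in the large subunit and 25 in the small (Mrps30 and Mrps18a, despite their names, are large-subunit proteins), 45 have a bacterial counterpart and 31 are specific to mitochondria. Mrps18a and Mrps18b are related to bacterial S18, as is Mrps18c, but were counted here among the 31.

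Promoters of nuclear genes for mitochondrial proteins are known to hold sites for NRF1, for the ETS-family factor GABP and for YY1. RefSeq promoters (build GRCr8, 250 bases before to 50 after the annotated start) matched 62 of the 76 genes. The letters CCGGAAG, the core of an ETS site, were found on either strand in 20 of the 62 (32.3%), and in 9.22% of all 27457 promoters of this length. The YY1 letters AAGATGGC were in 14 (22.6%), against 3.44%, and GCATGCGC, a part of the NRF1 palindrome whose forms on opposite strands can overlap, was in 5 (8.06%), against 2.66%. Of the 62, 32 held at least 1 of the 3. Such a match is a string of letters and was not shown to be a bound site. The promoters below belong to the genes on which the results turn: Mrpl49 and Mrpl44, which moved in opposite directions in healthy rats over 34 d, Mrps21, lower in MS rats at 34 d, and Mrps27 and Mrps18c, whose levels ran against those of the rest of the family. Capitals mark the YY1 letters in Mrpl49, the overlapping NRF1 letters in Mrpl44, the ETS letters in Mrps21 and Mrps18c, and the ETS and then the YY1 letters in Mrps27. Every ETS match printed lies on the opposite strand and so reads CTTCCGG.
Mrpl49 (chr1:212779278-212779577, minus strand): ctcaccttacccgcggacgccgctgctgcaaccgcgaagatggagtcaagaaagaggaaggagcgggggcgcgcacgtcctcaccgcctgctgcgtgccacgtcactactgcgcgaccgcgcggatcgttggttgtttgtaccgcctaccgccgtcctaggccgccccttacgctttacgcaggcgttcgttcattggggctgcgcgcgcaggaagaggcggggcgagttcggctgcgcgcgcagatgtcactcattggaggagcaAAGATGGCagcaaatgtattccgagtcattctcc
Mrpl44 (chr9:88554800-88555099, plus strand): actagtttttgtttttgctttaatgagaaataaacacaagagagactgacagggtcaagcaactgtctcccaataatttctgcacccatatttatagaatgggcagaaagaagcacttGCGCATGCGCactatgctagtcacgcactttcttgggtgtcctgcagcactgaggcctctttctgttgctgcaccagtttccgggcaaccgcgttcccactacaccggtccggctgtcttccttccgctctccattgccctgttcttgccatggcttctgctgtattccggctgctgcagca
Mrps21 (chr2:186103302-186103601, minus strand): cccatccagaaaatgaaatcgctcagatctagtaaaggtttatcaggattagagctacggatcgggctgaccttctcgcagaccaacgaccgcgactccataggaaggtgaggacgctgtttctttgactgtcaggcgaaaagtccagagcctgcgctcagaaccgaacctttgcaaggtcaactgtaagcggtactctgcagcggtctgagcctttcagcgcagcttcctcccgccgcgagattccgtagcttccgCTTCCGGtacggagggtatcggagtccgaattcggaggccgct
Mrps27 (chr2:32473954-32474253, plus strand): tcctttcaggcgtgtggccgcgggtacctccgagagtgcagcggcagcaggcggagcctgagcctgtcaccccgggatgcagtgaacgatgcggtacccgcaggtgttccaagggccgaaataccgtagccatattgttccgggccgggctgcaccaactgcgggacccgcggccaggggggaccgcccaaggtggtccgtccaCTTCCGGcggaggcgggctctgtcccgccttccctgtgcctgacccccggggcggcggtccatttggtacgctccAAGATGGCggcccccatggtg
Mrps18c (chr14:9122857-9123156, minus strand): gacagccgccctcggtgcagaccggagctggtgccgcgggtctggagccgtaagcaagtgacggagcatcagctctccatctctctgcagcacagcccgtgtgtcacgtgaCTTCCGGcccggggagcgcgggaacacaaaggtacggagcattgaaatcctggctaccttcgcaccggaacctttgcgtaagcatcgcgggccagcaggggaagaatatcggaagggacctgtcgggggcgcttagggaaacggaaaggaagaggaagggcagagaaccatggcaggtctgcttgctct
Counted from the first transcribed base, the YY1 letters of Mrpl49 began at base 17 and those of Mrps27 at base 30, while the NRF1 letters of Mrpl44 began at base -132 and the ETS letters of Mrps18c at base -139. No motif was found in all the genes called in a direction in the comparisons below. Of the 6 genes with a promoter that were lower in NOCIA at 34 d, 2 held any of the 3 motifs. Of the 4 that were higher, 3 held any, and 2 held the YY1 letters. Of the 5 that were lower in MS at 34 d, 3 held any. These sets are too small to compare with the shares above.

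Values are log2 expression levels, so that a difference of 1 is a 2-fold change, and a level is compared only within a gene, since different probe sets have different brightness. Within a group the 2 rats differed with a pooled SD whose median over the 76 genes was 0.29, from 0.12 for Mrpl37 to 0.66 for Mrps27. The range over all 24 arrays had a median of 1.37, with the widest at 3.09 for Mrps18c and 2.95 for Mrps6. Much of this range was shared. For each gene the correlation with the mean of the other 75 over 24 arrays had a median of 0.79 and was above 0.5 in 63 genes. This is a description, as the arrays share a platform and a normalization.

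Among the arrays 4 stood apart in their platelet markers, a set picked after seeing the data. In order, these were rat 1 of MS at 34 d, of MS at 1 h and of ANE at 1 h. The last was rat 2 of PLA at 1 h. Centred on each gene's own mean, the 9 measured platelet markers averaged 1.33, 1.23, 0.92 and 0.90 in these arrays in that order, and from -0.70 to 0.49 in the other 20. All 9 were well measured in every array: Pf4, the chemokine platelet factor 4, ran from 14.22 to 14.71, and Gp5, a platelet surface glycoprotein, from 8.32 to 11.97. The family mean was -0.71, -0.41, -0.08 and -0.19 in the same arrays. In the other 20 it ran from -0.13 to 0.21, so MS at 34 d rat 1 and MS at 1 h rat 1 were the lowest arrays of the series and the family was at or near its usual level in ANE at 1 h rat 1. The markers of the expected cells, 8 of T cells, 3 of B cells, 6 of natural killer cells and 6 of monocytes, all passed the filter, as did 5 of neutrophils and 6 of erythroid cells, which the separation should remove. The T cell markers were lowest in the same MS arrays, at -1.77 and -1.06. The low level was not particular to T cells. In MS at 34 d rat 1 the B cell, natural killer cell, monocyte and neutrophil markers were at -1.85, -1.51, -1.18 and -1.23. In MS at 1 h rat 1 they were at -0.30, -0.58, -0.84 and 0.20, in the same order. In a mixture such as PBMCs, fewer cells of a type and less RNA per cell cannot be told apart, and the part of the platelet or T cell signal in any result below was not tested. For Gapdh, the signal at the 3' end less that at the 5' end, a sign of RNA integrity, ran from 0.01 to 0.20 over all arrays, with 0.14 in MS at 34 d rat 1. For Actb it ran from 0.36 to 0.84, with the highest value in NOCIA at T0 rat 2 (rat 1 had 0.56) and with 0.36 in both MS rats at 34 d against 0.54 and 0.59 in CIA at T0, and its part in the results was not tested.

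**Figure D1:**
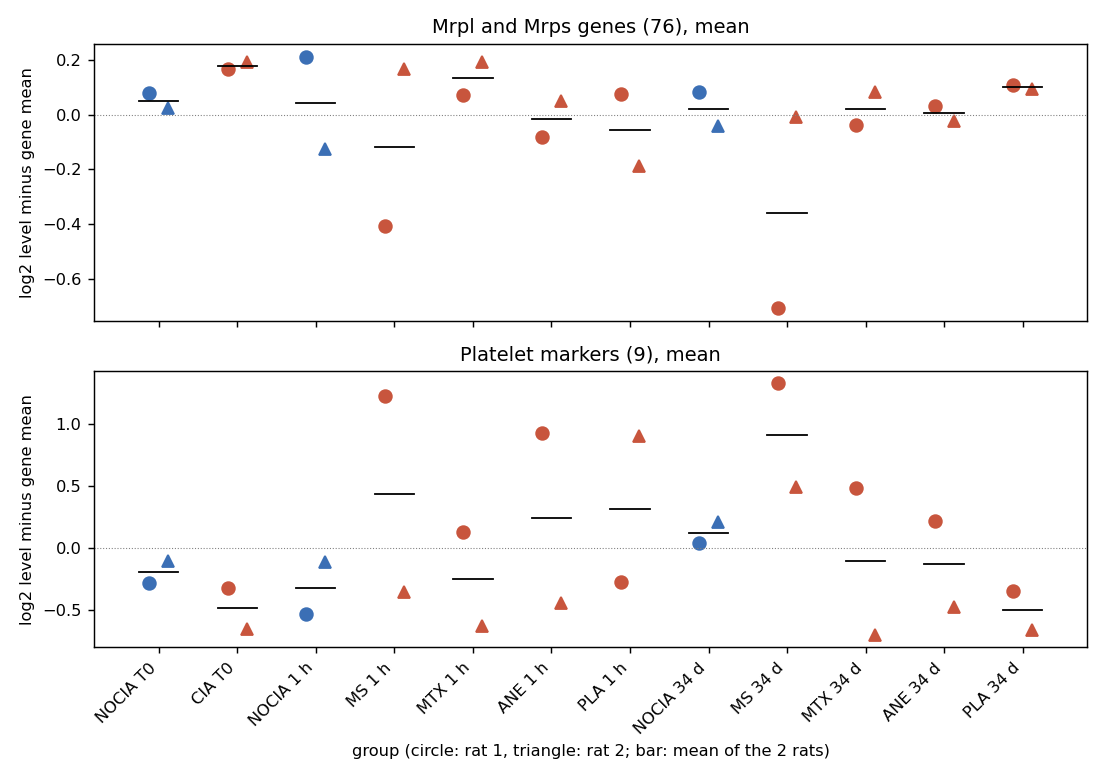
Mean level of the 76 Mrpl and Mrps genes (upper panel) and of 9 platelet markers (lower panel) in each array, in log2 units after subtraction of each gene's mean over 24 arrays. Circles are rat 1, triangles rat 2, bars the mean of both, blue NOCIA and red CIA rats. The lowest family level, -0.71 in MS at 34 d rat 1, falls in the array with the highest platelet level, 1.33.

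The lowest value of 56 of the 76 genes lay in MS at 34 d rat 1. The family mean followed the respiratory chain subunits closely, with a correlation of 0.94 over all 24 arrays and 0.89 over the 20 without those named above. Its correlation with the T cell markers was 0.90 over 24 and 0.61 over 20 arrays, and with the platelet markers -0.83 and -0.61. With the natural killer cell markers it was 0.59 and 0.70, the latter above the T cell value. For B cells it was 0.65 and 0.23, for monocytes 0.59 and 0.07, for neutrophils 0.17 and -0.26 and for erythroid cells -0.32 and -0.47. Without the 4 arrays the members also moved together less, as the median correlation over the 2850 pairs of genes was 0.26 in place of 0.58, and 37 genes rather than 63 were above 0.5 with the family.

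In all 4 genes ran against the family mean over the 24 arrays. Mrps18c, 1 of the 3 mitochondrial relatives of bacterial protein S18, had a correlation of -0.91, and Mrps27, a mitochondria-specific protein with pentatricopeptide repeats, one of -0.90. Mrpl14, related to bacterial L14 at the subunit interface, had -0.78, and Mrpl38, with narrow levels throughout, had -0.27. Over the 20 arrays without the 4 named above, Mrps18c and Mrps27 were at -0.48 and -0.51, Mrpl38 was at -0.024 and Mrpl14 turned to 0.16, and 9 genes in all were below 0. The levels of Mrps27 and Mrps18c tracked the platelet markers, with correlations of 0.94 and 0.87 over 24 arrays and of 0.90 and 0.77 over 20. Mrpl14 had 0.64 over 24 arrays but -0.21 over 20, so that its likeness rested on the 4 arrays.

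Mrps27 was at 9.81 in MS at 34 d rat 1, 9.24 in MS at 1 h rat 1, 8.38 in ANE at 1 h rat 1 and 8.42 in PLA at 1 h rat 2. In the other 20 arrays it ran from 7.04 to 8.14. Mrps18c was at 10.69, 9.49, 8.66 and 8.80 in those arrays, in the same order. The other 20 lay between 7.60 and 8.70, so Mrps27 was clear of them in all 4 arrays and Mrps18c in 3, with ANE at 1 h rat 1 just inside the highest of the rest. The dimmer probe sets of these genes that passed the filter also followed the platelet markers. A probe set of Mrps18c with a mean of 6.95 correlated at 0.96 with the brightest and at 0.90 with the platelet markers, and 2 others of Mrps27 correlated at 0.67 and 0.66 with the platelet markers. The dimmest probe set of Mrps18c, which failed the filter, had 0.59 with the brightest and 0.39 with the platelet markers.

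**Figure D2:**
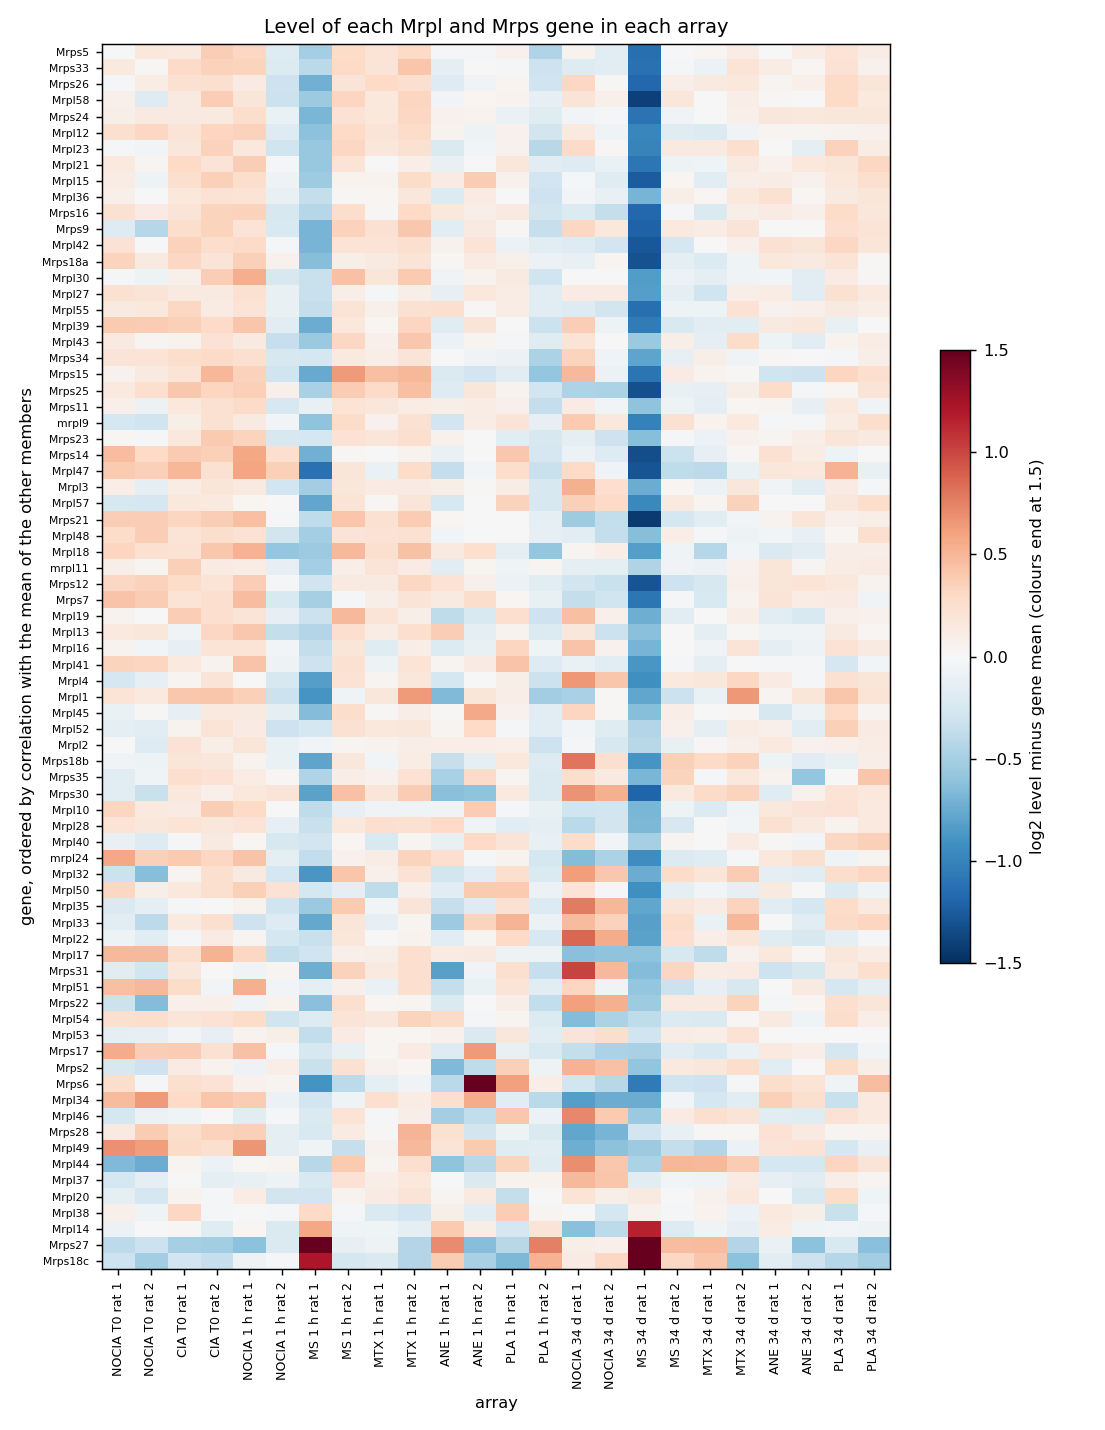
Level of each of the 76 genes (rows, ordered by correlation with the mean of the other members) in each of the 24 arrays (columns), in log2 units after subtraction of the gene's mean, with the colour scale ending at 1.5 in either direction. The column of MS at 34 d rat 1 is blue for most genes and red in the bottom rows, Mrpl14, Mrps27 and Mrps18c.

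Whether the genes differed among the 12 groups at all was asked with limma's moderated F test, adjusted over 20690 probe sets by the Benjamini-Hochberg method. No member passed an adjusted p of 0.05, against 2.26% of all probe sets (467), and 14 had an unadjusted p under 0.05. The nearest were Mrpl49, a mitochondria-specific protein of the large subunit (adjusted p = 0.0508), and Mrpl34, related to bacterial L34 (0.0545). For both, NOCIA at T0 was the highest group and NOCIA at 34 d the lowest. The count turned on the handling of single arrays: 17 members passed without MS at 34 d rat 2, 25 when arrays were weighted by their fit, and 19 when the 4 platelet-rich arrays were left out, an alternative chosen after seeing the data.

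In healthy rats, members of the family were called in both directions over 34 d, as were probe sets at large. Between NOCIA at T0 and NOCIA at 34 d, 12 of the 76 genes were called at an adjusted p under 0.05 in limma (15.8%, against 12% of all probe sets), 7 lower and 5 higher at 34 d. Of all probe sets 1172 were called lower and 1306 higher, and 51.9% lay below 0, against 55.3% of the members. The median difference of the family was -0.11, against -0.017 for all probe sets, with 42 genes below 0 and 34 above, so members were found on both sides of 0. The count depended on the fit: it was 37 with only these 2 groups, 38 with array weights, 22 after quantile normalization and 33 without the 4 platelet-rich arrays, and between 3 and 6 when 1 of the 4 rats was left out. At the study's thresholds, an unadjusted p under 0.05 with a fold change over 2, the count was 4 lower and 2 higher, with 9.91% of all probe sets past them.

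Mrpl49 stood at 6.66 and 6.60 in the NOCIA rats at T0 and at 5.24 and 5.36 at 34 d, a difference of -1.33 ± 0.23 (SE, adjusted p = 0.00183). Mrpl34 was at 8.69 and 8.85, then at 7.39 and 7.47 (-1.34 ± 0.23, adjusted p = 0.00209). Mrpl17, related to bacterial L17, was at 10.18 in both rats and then at 9.07 and 9.09 (-1.11 ± 0.22, adjusted p = 0.00454). In these genes the rats of a group lay close together and the groups did not overlap. They were also called whichever of the 4 rats was left out, with adjusted p-values up to 0.0488. Wherever a rat is left out, its group has 1 array, which the fit assumes to vary like the other groups, so such counts show dependence on single arrays and do not replace a replicate. A second, dimmer probe set of Mrpl49 differed by -1.01.

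Mrps28 went from 7.52 and 7.76 to 6.60 and 6.68 (-0.996, adjusted p = 0.00784), and mrpl24, related to bacterial L24, from 9.34 and 9.11 to 8.11 and 8.29 (-1.03, adjusted p = 0.0126). Mrpl54, specific to mitochondria, went from 9.64 in both rats to 8.73 and 8.91 (-0.82, adjusted p = 0.0159). Mrps17, related to bacterial S17, went from 9.46 and 9.27 to 8.54 and 8.42 (-0.88, adjusted p = 0.0203). Of the 7 genes that fell, 5 belong to the large subunit and 5 have a bacterial counterpart.

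The 5 genes that rose were led by Mrpl44, a large-subunit protein with a ribonuclease III fold, at 7.41 and 7.33 at T0 and 8.77 and 8.48 at 34 d (1.26 ± 0.29, adjusted p = 0.00978). Mrps22, mitochondria-specific and in the small subunit, went from 7.05 and 6.73 to 7.99 and 7.91 (1.06 ± 0.26, adjusted p = 0.0143). Mrpl37 went from 8.40 and 8.54 to 9.15 and 9.09 (0.65, adjusted p = 0.0158). Mrps2, related to bacterial S2, went from 7.90 and 7.83 to 8.67 and 8.58 (0.76, adjusted p = 0.0457), and Mrpl46 from 7.55 and 7.72 to 8.53 and 8.20 (0.74, adjusted p = 0.0414). Of the 5, all but Mrps2 are specific to mitochondria. Over the whole family the 31 mitochondria-specific genes had a median of 0.043 and the 45 with a bacterial counterpart -0.14, a difference that was not tested.

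A second probe set of Mrpl37 also differed upward, by 0.97, and its dimmest by -0.09. The dimmer probe sets of Mrps2 stayed near 0 (-0.04 and 0.06). Over the genes with several probe sets, 12 of 20 dimmer ones that passed the filter had the sign of the brightest in this comparison. Other cell markers moved with the same comparison. The natural killer cell list went from 0.44 and 0.36 at T0 to -1.29 and -0.97 at 34 d, with 2 of 6 markers called lower, and the 3 B cell markers, all called lower, from 0.98 and 0.95 to -0.71 and -0.58. The T cell list, with 1 of 8 markers called lower, went from 0.46 and 0.47 to -0.0059 and -0.42, and the neutrophil list, with none of 5 called, from -0.61 and -0.87 to 0.26 and 0.14. The platelet markers lay at -0.28 and -0.11, then 0.039 and 0.20. The part of these cells in the change was not tested.

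At 1 h, NOCIA rats gave no called member against NOCIA at T0 (0.00483% of all probe sets were called), and 2 had an unadjusted p under 0.05. The lowest and highest members by the moderated t were again Mrpl17 (-0.51), Mrpl34 (-0.41) and Mrpl49 (-0.40), and Mrps2 (0.29), Mrps22 (0.49) and Mrpl44 (0.73), but this comparison shares the T0 rats with the one at 34 d. Mrpl49 differed between the 1 h rats, at 6.63 and 5.83, so that the first was at the T0 level and the second was not. Mrpl44 was at 8.08 and 8.11, above both T0 rats.

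**Figure D3:**
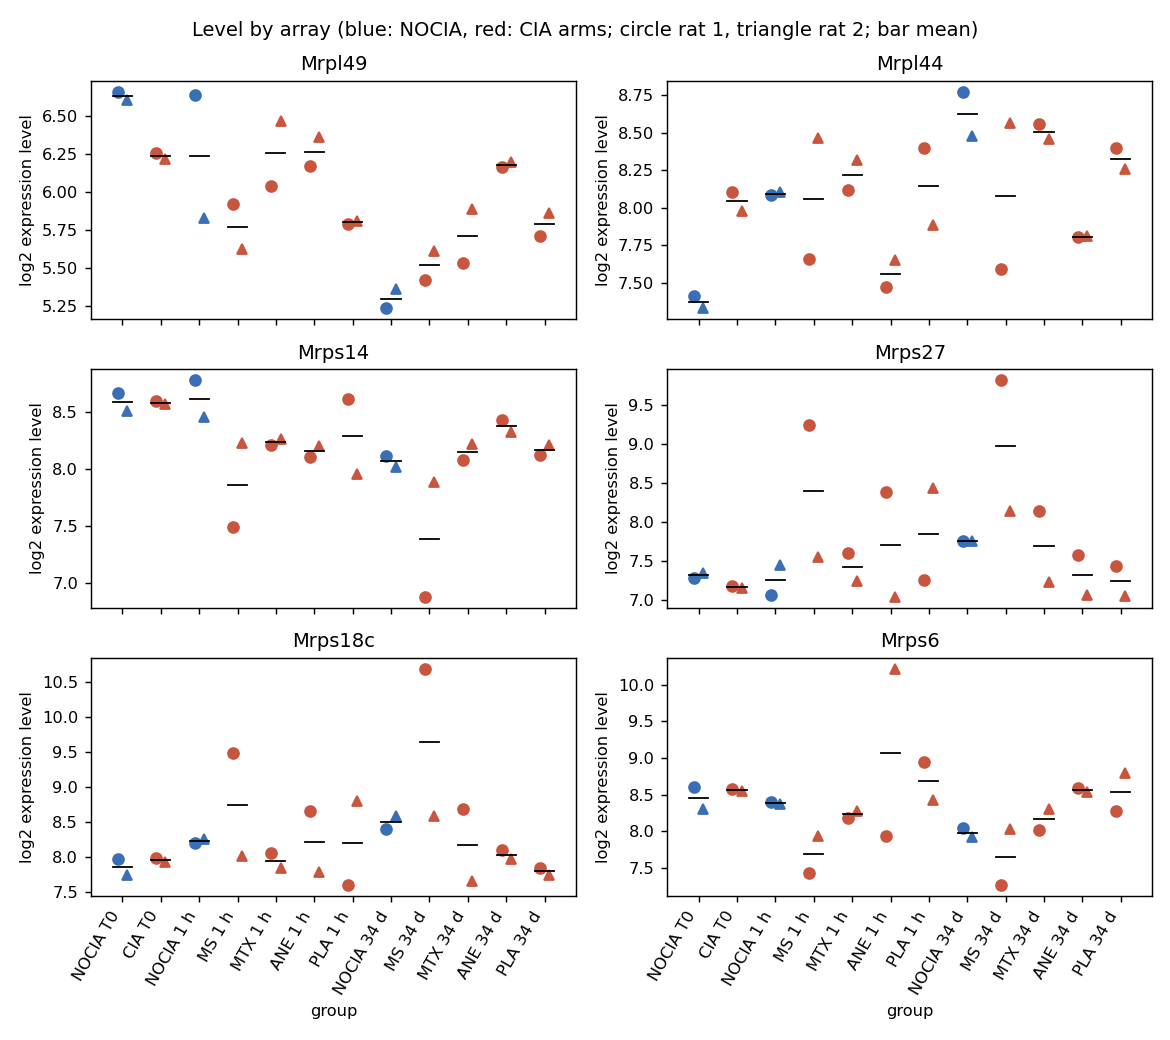
Log2 expression level of 6 genes in each array, by group in the order of time (blue NOCIA, red CIA rats; circles rat 1, triangles rat 2, bars the mean). Mrpl49 falls from 6.66 and 6.60 to 5.24 and 5.36 in NOCIA over 34 d while Mrpl44 rises, Mrps27 and Mrps18c peak in MS at 34 d rat 1 where Mrps14 is lowest, and Mrps6 stands out at 10.22 in ANE at 1 h rat 2.

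The 34-day differences of the arthritic arms rest on other rats than the NOCIA comparison, and were set beside it gene by gene. All 12 genes called in NOCIA had the same sign in MTX and in PLA, 8 had it in MS and 7 in ANE. Across the 76 genes the correlation with the NOCIA difference was 0.82 for MTX and 0.72 for PLA, 0.44 for MS and -0.15 for ANE. Over all 20690 probe sets these values were 0.57, 0.47, 0.32 and -0.03. Genes are not independent replicates, the arrays share a normalization and the 4 arms share the CIA rats at T0, so these values are a description. Over the 12 genes the median absolute difference was 1.01 in NOCIA, 0.50 in MS, 0.37 in MTX, 0.25 in PLA and 0.15 in ANE. As the 12 were chosen by their call in NOCIA, the larger size there is set by the choice and is no result.

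**Figure D4:**
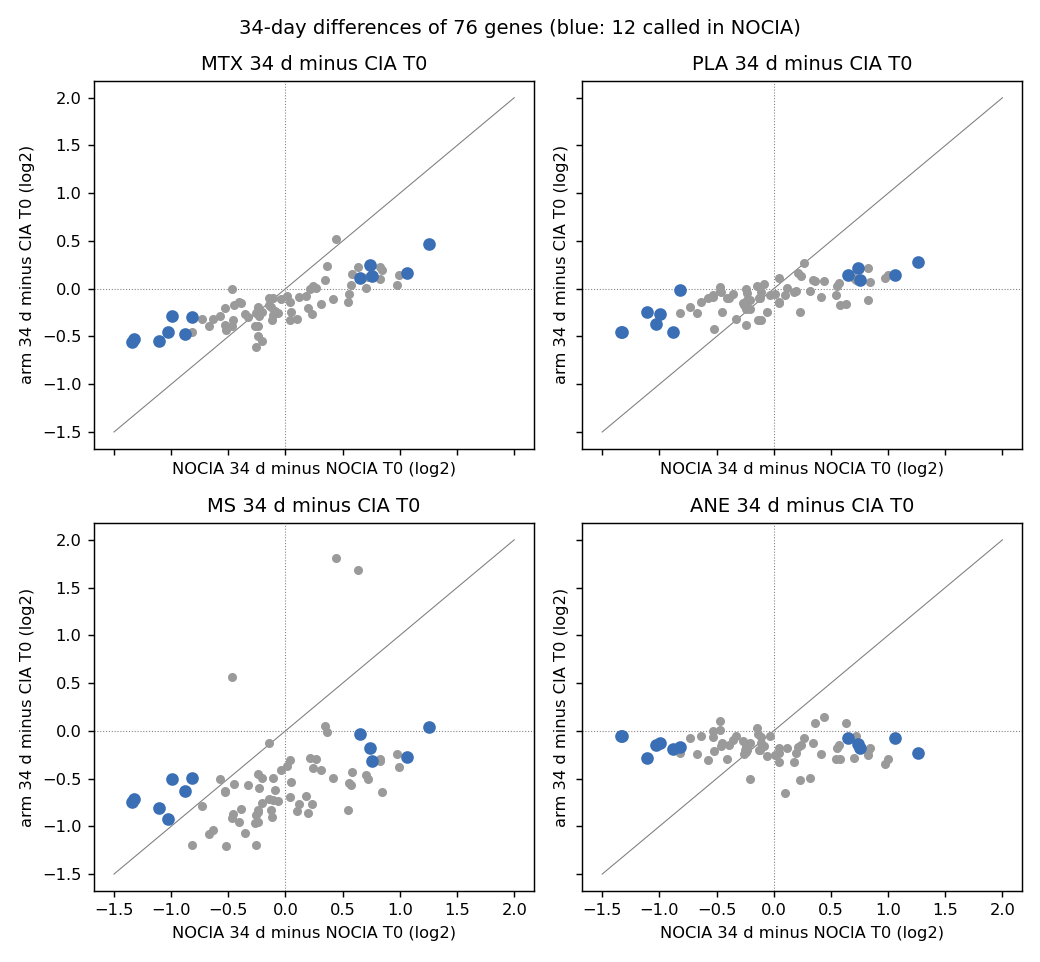
Difference in log2 level between 34 d and T0 for 76 genes, in NOCIA rats (horizontal axis) and in 4 arms against CIA at T0 (vertical axis), with the 12 genes called in NOCIA in blue and the line of equal change in grey. In MTX and PLA the blue points lie in the lower left and the upper right, in MS most points lie below 0, and in ANE they lie near 0.

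The difference between the change in an arm and the change in NOCIA was tested in the same 12-group fit. For ANE, 2 members were called, with 2.86% of all probe sets called: Mrpl49, at -0.058 over 34 d in ANE and -1.33 in NOCIA (difference 1.27 ± 0.32, adjusted p = 0.0473), and Mrpl34, at -0.052 and -1.34 (1.29 ± 0.33, adjusted p = 0.0492). Both lost the call when any of the 8 rats involved was left out. No member was called for MS (0.0338% of all probe sets), MTX (0.0242%) or PLA (0.00967%), where 19, 5 and 9 members had an unadjusted p under 0.05.

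In CIA rats under MS, most of the family lay lower at 34 d than at T0, and the difference was carried by 1 of the 2 rats. Of 76 genes, 71 were below CIA at T0 (93.4%, against 58.5% of all probe sets) and the median difference was -0.61, against -0.16 for all. Without rat 1 the median was -0.24, without rat 2 it was -0.98, and after quantile normalization it was -0.38. Called at an adjusted p under 0.05 were 6 genes, all lower (7.89%, against 6.96% of all probe sets). In 48 genes both MS rats were below both CIA rats (63.2%), where 38.4% of all probe sets were lower without overlap. At the study's thresholds 6 were lower and 2 higher, against 13.9% of all probe sets past them in either direction.

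Mrps14, related to bacterial S14, was at 8.60 and 8.57 in CIA at T0 and at 6.88 and 7.89 in MS at 34 d (-1.20 ± 0.29, adjusted p = 0.0371). Mrps21, related to bacterial S21, was at 9.49 and 9.54, then 7.73 and 8.91 (-1.19 ± 0.30, adjusted p = 0.0404). Mrps12, a counterpart of bacterial S12 of the decoding site, was at 8.48 and 8.41, then 6.91 and 7.90 (-1.04 ± 0.25, adjusted p = 0.0365). In each the first MS rat was far below the second, and both were below CIA.

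Mrpl42, specific to mitochondria, was at 8.59 and 8.51, then 6.97 and 7.99 (-1.07, adjusted p = 0.0437). For mrpl24 the levels were 9.16 and 9.07, then 7.83 and 8.55 (-0.92, adjusted p = 0.0434), and for Mrpl17 9.94 and 10.22, then 9.09 and 9.45 (-0.81, adjusted p = 0.0449). These 2 genes were also among the 7 that were lower in NOCIA at 34 d. Past the study's thresholds without the adjusted call were Mrps25 (-1.08) and Mrpl47 (-1.20), whose adjusted p-values were 0.0521 and 0.0563.

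The genes past the study's thresholds in the other direction were Mrps27, from 7.17 and 7.15 to 9.81 and 8.14 (1.81 ± 0.59, adjusted p = 0.0624), and Mrps18c, from 7.99 and 7.93 to 10.69 and 8.59 (1.68 ± 0.58, adjusted p = 0.0676). Without MS rat 1 their differences were 0.98 and 0.63. With both MS rats, the dimmer probe sets of Mrps27 that passed the filter differed by only 0.66 and 0.56, under 2-fold. That of Mrps18c differed by 1.77. No member was called when MS rat 1 or either CIA rat was left out, nor with only the 2 groups or with array weights, whereas 59 members were called without MS rat 2. In these fits the group left with 1 rat takes its spread from the other groups. The platelet markers averaged 1.33 and 0.49 in the MS rats and -0.32 and -0.65 in CIA at T0. The T cell markers were at -1.77 and -0.18 against 0.56 in both CIA rats, and the 3 B cell markers were all called lower. Natural killer cell markers were at -1.51 and -0.54 against 0.48 and 0.50. Those of monocytes were at -1.18 and 0.03 against -0.02 and 0.12, and those of neutrophils at -1.23 and -0.60 against -0.61 and -0.50. Whether these cells account for the difference was not tested. By class, the small subunit had a median of -0.74 and the large one of -0.55, with 3 genes called in each.

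Against the other arms at 34 d no member was called for MS (0% of all probe sets in either comparison). The median difference was -0.52 against PLA and -0.44 against MTX, and 31 and 13 members had an unadjusted p under 0.05. Past the study's thresholds against PLA (8.36% of all probe sets) were Mrpl42 (-1.01) and Mrpl47 (-1.05), lower, and Mrps27 (1.73) and Mrps18c (1.84), higher. Against MTX (3.84% of all probe sets) they were Mrps27 (1.29) and Mrps18c (1.46). By the moderated t the lowest members also included Mrps12 (-0.91) and Mrps21 (-0.94) against PLA, and they were Mrps12 (-0.72), Mrpl42 (-0.80) and Mrps14 (-0.77) against MTX. The third highest in both was Mrpl14 (0.54 and 0.57). Without MS rat 1 the medians were -0.13 against PLA and -0.046 against MTX.

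**Figure D5:**
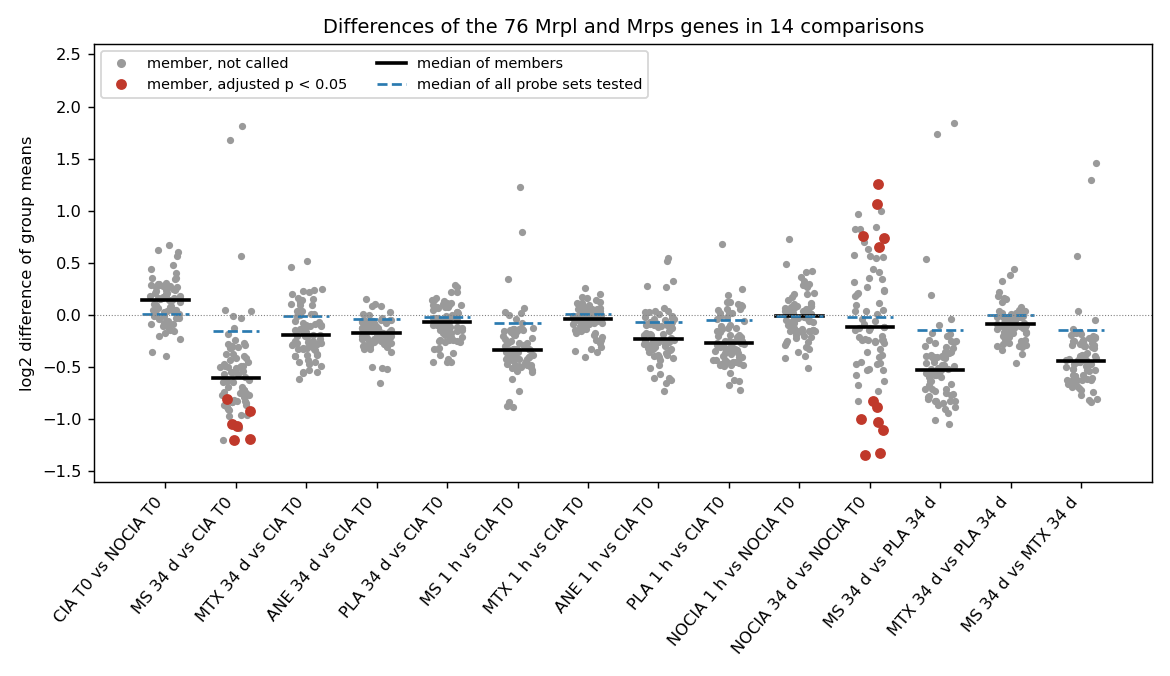
Log2 difference of group means for the 76 genes (points, with genes called at an adjusted p under 0.05 in red) in 14 comparisons, with the median of the members (black bar) and of all 20690 probe sets tested (blue dashed bar). Red points appear in 2 comparisons, 6 below 0 for MS at 34 d and 7 below and 5 above 0 for NOCIA at 34 d.

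The other arms gave smaller differences from CIA at T0. CIA at T0 had the highest family mean of the 12 groups, 0.18, and the same 2 CIA rats serve in every comparison with it. In ANE at 34 d the median difference was -0.17, with 69 genes below 0. In 55 genes (72.4%) both ANE rats were below both CIA rats, where 28.8% of all probe sets were lower without overlap. The share of members was 57.9% in MTX at 34 d (30.3% of all probe sets) and 35.5% in PLA at 34 d (31.2%). No member was called or had an unadjusted p under 0.05 in ANE (0% of probe sets called). The lowest members by the moderated t were Mrpl19 (-0.52), Mrps15 (-0.65) and Mrps35 (-0.50), and the highest Mrps27 (0.15), Mrpl14 (0.11) and Mrpl53 (0.09).

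In MTX the median was -0.19 and no member was called (0% of probe sets), while 3 had an unadjusted p under 0.05. Those were Mrpl17 (-0.55 ± 0.22), Mrpl34 (-0.56 ± 0.23) and Mrpl49 (-0.53 ± 0.23) (adjusted p = 0.774, 0.790 and 0.810), the members with the smallest adjusted p in NOCIA. The highest were Mrpl46 (0.25), Mrpl53 (0.24) and Mrpl44 (0.46). In PLA the median was -0.068 (0.019 after quantile normalization), with no call (0% of probe sets) and none at an unadjusted p under 0.05. Mrpl49 (-0.45), Mrps17 (-0.45) and Mrpl34 (-0.45) were lowest and Mrpl46 (0.22), Mrpl44 (0.28) and Mrpl40 (0.27) highest. MTX against PLA at 34 d gave no call (0%), none at an unadjusted p under 0.05 and a median of -0.085, from Mrpl10 (-0.31), Mrpl17 (-0.30) and Mrpl54 (-0.28) to Mrpl38 (0.16), Mrpl53 (0.16) and Mrps18b (0.32).

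Arthritis before therapy was compared with health at T0. The median of the family was 0.14 higher in CIA, against 0.008 for all probe sets, and 54 genes were above 0. In 39 genes (51.3%) both CIA rats were above both NOCIA rats, where 28.6% of all probe sets were higher without overlap. No member was called (0.00483% of probe sets), and 2 had an unadjusted p under 0.05. These were Mrpl44, at 8.10 and 7.98 in CIA against 7.41 and 7.33 (0.67 ± 0.29), and Mrps22, at 7.45 and 7.46 against 7.05 and 6.73 (0.57 ± 0.26). With Mrpl32 (0.62) they were the highest, and Mrpl49 (-0.39), Mrpl51 (-0.35) and Mrpl34 (-0.20) the lowest. These 6 genes were read against the same NOCIA rats at T0 as the comparison over 34 d.

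At 1 h after therapy no member was called by limma in any arm against CIA at T0, and 7 in MS, 3 in PLA, 1 in MTX and 2 in ANE had an unadjusted p under 0.05. For MS (0.00967% of probe sets called) the median was -0.34 and 70 genes were below 0, with Mrps14 (-0.73), Mrpl1 (-0.89) and Mrpl10 (-0.50) lowest and Mrpl14 (0.35), Mrps18c (0.80) and Mrps27 (1.23) highest. Without the platelet-rich rat 1 the median was 0.0098, and without rat 2, where 9 members were called, it was -0.68.

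For PLA at 1 h (0%) the median was -0.27 (-0.15 without the platelet-rich rat 2), with Mrpl34 (-0.63), Mrps34 (-0.56) and Mrps23 (-0.47) lowest and Mrpl37 (0.13), Mrpl46 (0.20) and Mrps27 (0.68) highest. For MTX at 1 h (0.0145%) it was -0.036, with Mrpl38 (-0.40), Mrpl10 (-0.30) and Mrpl50 (-0.35) lowest and Mrpl44 (0.17), Mrpl20 (0.14) and Mrpl37 (0.20) highest. For ANE at 1 h (0.0338%) it was -0.23, with Mrps2 (-0.61), Mrpl19 (-0.62) and Mrps30 (-0.73) lowest and Mrpl45 (0.28), Mrpl14 (0.33) and Mrps6 (0.52) highest.

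Mrps6, related to bacterial S6 of the small subunit, differed sharply between the ANE rats at 1 h. It was at 10.22 in rat 2 and 7.93 in rat 1, and in the other 22 arrays it lay between 7.26 and 8.94. Rat 2 also had the highest level of the neutrophil markers in the series, 2.38, against -1.44 in rat 1. Over the 24 arrays Mrps6 correlated with the neutrophil markers at 0.64. Its gene was measured by 1 probe set only, and the part of neutrophils was not tested.

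Other genes of mitochondrial translation were followed from lists of their functions. In MS at 34 d, where 6.96% of all probe sets were called, 2 of 15 translation factors were called lower, the RNA-binding partners Lrpprc (-1.27) and Slirp (-1.26), which stabilise mitochondrial messages. Of 24 assembly factors Mterf3 (-1.32) and Tfb1m (-1.08), which methylates the RNA of the small subunit, were called lower. Of 9 regulators of mitochondrial genes in the nucleus Gabpb1 (-1.23), a subunit of GABP, was called lower, and of 67 respiratory chain subunits Ndufb2 (-0.76), Ndufs1 (-1.85), Sdha (-1.19) and Atp5f1c (-1.32), a share of the list below that of all probe sets. None of these genes was called higher, and no gene was called among 5 mitoribosome proteins under other names, 13 tRNA synthetases or 13 genes of mitochondrial transcription and replication.

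In NOCIA at 34 d, where 12% of all probe sets were called, 3 of the lists held calls in both directions. Of the 24 assembly factors 5 were higher and 1 lower: Fastkd2 (1.49), Gtpbp10 (1.42), Ngrn (1.09), Mettl17 (0.89) and Rcc1l (0.88) rose and Tfb1m (-1.06) fell. Among 13 genes of transcription and replication Tefm (-1.46), an elongation factor, and Polg (-1.38), the DNA polymerase, fell, while the poly(A) polymerase Mtpap (1.22) and the helicase Supv3l1 (0.90) rose. Of 15 translation factors Mtrfr (-1.55), a release factor homologue, and Pdf (-0.95), a deformylase, fell. Of the 67 respiratory chain subunits Ndufs1 (-1.66), Ndufb3 (-0.73), Ndufa3 (-0.71) and Ndufa11 (-0.70) fell and Ndufa7 (0.94) rose, a share of the list below that of all probe sets. No regulator, synthetase or mitoribosome protein under another name was called.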

How the data were processed

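PBMCs were isolated on Ficoll, RNA was extracted in 1 batch, and labelled RNA was hybridised to 24 Affymetrix rat arrays, each for a separate rat. The deposited values are log2 intensities that the authors summarised and normalized over all arrays with RMA in the affy package (version not given in the sources used here), and the study's methods also describe MAS5. The values deposited were used as they stand. RMA brings the arrays towards a common distribution, so a shift shared by most transcripts can be reduced or hidden. Some shift remained in the values, as the median difference of all probe sets was -0.16 for MS at 34 d against CIA at T0. Array medians lay between 5.49 and 5.58.

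Groups were taken from the sample labels. Of 31099 probe sets, 57 controls were removed and 20690 kept that exceeded the 40th percentile of the array in at least 2 arrays. Of all probe sets, 20832 had 1 gene symbol, 436 several and 9831 none, in an annotation that can be old. A model with 12 groups and 12 residual degrees of freedom was fitted with limma 3.58.1 in R 4.3.3 (lmFit, contrasts and moderated statistics), and p-values were adjusted by the Benjamini-Hochberg method over all probe sets kept. A call is an adjusted p under 0.05. The study's thresholds, an unadjusted p under 0.05 and a fold change over 2, were counted too. SE is that of the fitted difference. With 2 rats per group, their number limits the precision. The functions were tested on simulated data.

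Genes were named when called, when past the study's thresholds, or, with fewer than 3 calls, as the 3 highest and 3 lowest by the moderated t. Up to 4 genes per list of related functions, or all called ones, were named. Mrps6, Mrpl14, Mrpl38, Mrps18c and Mrps27 were also singled out after their values were seen. The members and lists were chosen with earlier results of these data known. List levels are means of values centred per gene. Promoters came from RefSeq tables (build GRCr8). The alternatives were a replicate block, only the groups compared, other filters, quantile normalization, limma-trend with robust moderation, array weights, the mean of a gene's probe sets, and leaving out each rat. Leaving out the 4 platelet-rich arrays and the tests of differences of 34 d changes were chosen after seeing the data.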

Additional observations from a re-analysis of the deposited data

Results flagged for a closer look

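For 2 genes the change over 34 d was called different between groups in the test of the difference itself. Mrpl49 changed by -0.058 in ANE rats and by -1.33 in NOCIA rats, a difference of 1.27 (limma, adjusted p = 0.0473). Mrpl34 changed by -0.052 and -1.34, a difference of 1.29 (limma, adjusted p = 0.0492). These 2 of 76 members compare with 2.86% of all probe sets called in the same test, a share no higher than that background. No member was called with a replicate block, with the mean of a gene's probe sets or when any 1 of the rats involved was left out.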

How the results depend on the processing

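Over all results and alternatives, 340 values were labelled the same, 39 stronger, 22 weaker and 21 moved. A count of called members was the same when within 1.5 times its main value, and otherwise stronger or weaker. A median difference was the same when it shifted by less than the SD within the groups compared, and otherwise moved. These labels do not compare which genes were called or their direction. The causes were not tested. A group left with 1 rat was assumed to vary like the others. Counts of called members changed as follows. For any difference among the 12 groups (0), it was 4 after quantile normalization, 1 with limma-trend, 25 with array weights, 19 without the 4 platelet-rich arrays and 0 to 17 without 1 rat. For CIA against NOCIA at T0 (0), it was 1 with only the 2 groups, 4 with array weights and 1 without the 4 arrays. For MS at 34 d against CIA (6), it was 0 in each of these 3 and 0 to 59 without 1 rat. For NOCIA at 34 d (12), it was 37, 38 and 33 in them, 22 after quantile normalization and 3 to 6 without 1 rat. Array weights gave 1 for MTX and 2 for PLA at 34 d. Without the 4 arrays, ANE at 1 h gave 2 and NOCIA at 1 h gave 1. Without 1 rat, the range was 0 to 9 for MS at 1 h, 0 to 1 for ANE at 1 h, 0 to 58 for MS against PLA and 0 to 47 for MS against MTX.

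For the difference of the 34 d change from that of NOCIA, ANE (2) gave 27 with only the 4 groups, 30 with array weights, 22 without the 4 arrays, 6 after quantile normalization, 1 without the filter, 1 with limma-trend, 0 with the mean of probe sets and 0 without any 1 rat. MTX (0) gave 2, 9 and 4 in the first 3 of these and PLA (0) gave 14, 20 and 8. MS (0) gave 1 without the 4 arrays and 0 to 41 without 1 rat.

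Replicate numbers are shared by the labels. The correlation of the rat 1 minus rat 2 differences had a median of -0.006 over 66 pairs of groups, from -0.76 to 0.81. It was above 0.1 in 25 pairs and below 0 in 34, so the check cannot exclude pairing in some groups. The rats were treated as unpaired because each array came from a separate, sacrificed rat. A replicate block moved the ANE count from 2 to 0 and that of MS at 34 d against CIA from 6 to 9, and left every other count of called members within 1.5 times its value.

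Median differences moved after quantile normalization to -0.11 for MTX, -0.075 for ANE and 0.019 for PLA at 34 d and to -0.094 for ANE at 1 h. Without the 4 arrays they were 0.0098 for MS at 1 h, -0.16 for ANE at 1 h, -0.13 for MS against PLA and -0.046 for MS against MTX. Without 1 rat they ran from -0.68 to 0.0098 for MS at 1 h, from -0.28 to -0.16 for ANE at 1 h, from -0.17 to 0.16 for NOCIA at 1 h, from -0.16 to -0.004 for NOCIA at 34 d, from -0.25 to -0.11 for MTX, from -0.11 to -0.042 for PLA, from -0.98 to -0.24 for MS at 34 d, from -0.39 to -0.15 for PLA at 1 h, from -0.87 to -0.13 for MS against PLA, from -0.81 to -0.046 for MS against MTX and from -0.16 to -0.029 for MTX against PLA.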
